A study of Danio rerio with 2 samples.

Results

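Dense clusters of Tfap2a regions were taken from the peak list of an anti-Tfap2a CUT&RUN experiment in zebrafish embryos. They were chosen by position alone. On the 25 chromosomes, without chromosome 4 from 27 Mb on, neighbouring regions were chained when the gap between them was at most 5000 bp, and every region in a chain of 3 or more was kept. This selected 1524 of 18037 regions in scope (8.45%), in 353 chains, from a list of 18728 regions in all. A further 3020 regions lay in 1510 chains of 2, and 13493 isolated regions had no other region within 5000 bp. Both samples of the group came from whole, untreated wild-type embryos at 24 h post-fertilization, with 10 embryos dissociated and the antibody diluted 100-fold. Because all cell types of the embryo were pooled, a region cannot be assigned to neural crest or to any other tissue. The authors deposited 1 list for both samples, whose record names carry a single library code that is in no sample's labels. These names give the stage in somites, and whether it matches the labelled 24 h was not tested. With 1 list, no value below has a replicate error and no group of embryos can be compared with another.

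TFAP2A is a transcription factor that acts early in the neural crest, a cell population that leaves the dorsal neural tube and forms most of the facial skeleton, pigment cells and peripheral glia. It is also active in the surface ectoderm and the cranial placodes. In CUT&RUN, an antibody directs a nuclease to the chromatin beside its target, and the released short fragments pile up where the protein was bound. A peak caller then lists stretches in which the pileup exceeds a reference level, and gives each a summit, the base with the highest pileup.

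The fold enrichment and the −log10 p that the list gives for each record together fix 2 quantities that it does not print. One is the summit pileup, the whole number of fragments over the summit, and the other is the reference level, the number of fragments per base that would be covered without enrichment. In all 21059 records a whole pileup solved both values, with a misfit of at most 0.000522 in −log10 p. The fold enrichment is then the pileup plus 1 over the reference level plus 1. Apart from 655 records at the lowest reference level, 0.306, every reference level was a whole multiple of 1 step, 0.00459, as given by counting fragment ends in a window of 10 kb with fragments of about 92 bp. Expressed as fragments per 10 kb, it was never below the pileup of its own summit, and the lowest ratio was 1.06. These are properties of a level counted from the anti-Tfap2a fragments within 10 kb, although the labels and the study's methods name an IgG control. The fold enrichment is therefore read here as a summit against its own surroundings, in which a close neighbour raises the reference level by construction. Positions, pileups, reference levels and fold enrichments come from the same peak call that chose the members, so their values are given as a description without a test.

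Most chains were short, and a few were very long. Chains of 3 numbered 229 and held 687 regions, 45.1% of the clustered regions. There were 55 chains of 4, 21 of 5 and 27 of 6 to 9. The 21 chains of 10 or more held 317 regions, or 20.8%, and the largest had 31. A chain spanned a median of 5920 bp (quartiles 3870 and 8130 bp), from 847 bp on chromosome 9 to 55449 bp on chromosome 15. The median density was 6.04 regions per 10 kb, with a range from 2.52 to 35.4. Within chains, 1171 gaps separated neighbours, with a median of 1573 bp, and 468 of them (40.0%) were under 1 kb. The limit of 5000 bp did not fall at a break in the list. The largest gap inside it was 4998 bp and the smallest outside it 5003 bp. The 55 regions that followed a gap of 4900 to 5000 bp had a median pileup of 16 and a median fold enrichment of 9.11, and the 70 that followed a gap of 5001 to 5100 bp had 16.5 and 8.75.

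Clustered regions had taller pileups than isolated regions but lower fold enrichments. Their median pileup was 28 fragments (quartiles 17 and 45), against 16 in chains of 2 and 12 (quartiles 8 and 18) in isolated regions. The median reference level was 2.82 fragments per base in clustered, 1.09 in chains of 2 and 0.579 in isolated regions. Counted over 10 kb, this corresponded to medians of 306, 119 and 63 fragments. The median fold enrichment had the opposite order, from 8.32 in isolated regions to 7.90 in chains of 2 and 6.42 in clustered regions. Thus 1310 clustered regions (86.0%) exceeded the median pileup of isolated regions, whereas 431 (28.3%) exceeded their median fold enrichment. The median score, 10 times −log10 q, was 126 in clustered and 102 in isolated regions. Median widths were alike, at 193 and 187 bp. A region is listed only where its pileup exceeds its reference level, so a higher reference level also calls for a taller pileup. The lowest pileup was 4 in isolated and in clustered regions, but 14 in chains of 10 or more. Pileup and reference level of a listed region are therefore not independent. How far the peak call sets the taller pileups of clustered regions was not tested.

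**Figure D1:**
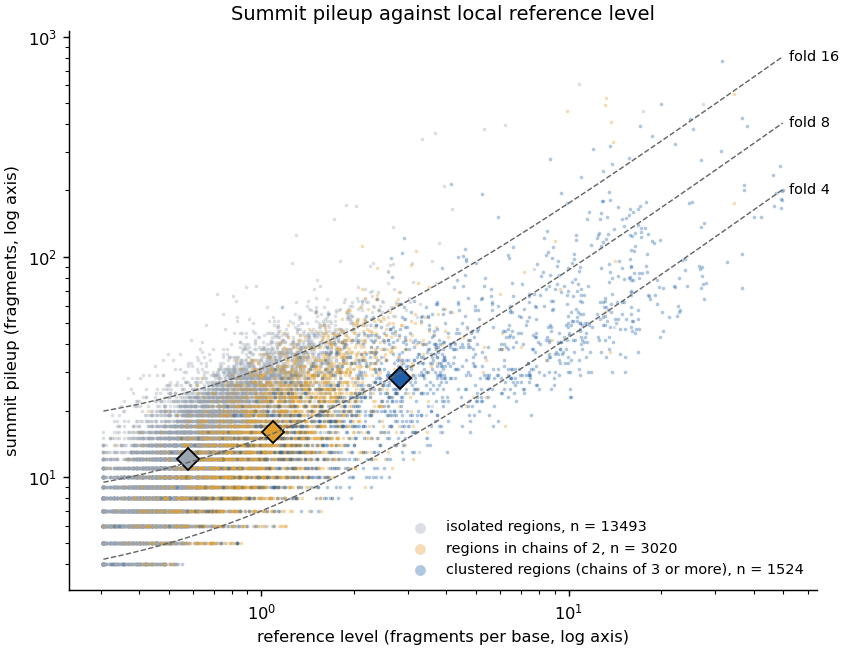
Summit pileup (fragments, log axis) against reference level (fragments per base, log axis) for the 1524 clustered regions (blue), 3020 regions in chains of 2 (orange) and 13493 isolated regions (grey). Diamonds are group medians and dashed lines join points of equal fold enrichment. The blue points reach the highest reference levels, and their median, 28 fragments at a reference level of 2.82, lies to the right of and above that of isolated regions.

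Many clustered regions stood in surroundings rich in fragments. A reference level more than 10 times the lowest was found in 709 clustered regions (46.5%) and in 26 isolated regions (0.193%), with 4.45% of all regions in scope as background. Since neighbours enter each other's window, this difference follows in part from the rule that chose the members. The listed summits within 4.8 kb, added up, made a median of 29.2% of the fragments in the reference of a clustered region and 19.4% in that of an isolated region, where the only region is its own. By this measure, which counts only the fragments over the summits, most fragments lay outside the listed summits around clustered and isolated regions alike. The share outside was the smaller in clustered regions, so it is not read as a trait of theirs. The own summit provided a median of 8.20% of the fragments in 10 kb in clustered regions.

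More than 1 summit was found in 275 clustered regions, or 18% (Wilson 95% interval 16.2 to 20.1%, for counting error only, with linked neighbours taken as independent), with 10.8% of all regions in scope as background. The share was 11.4% in chains of 2 and 9.79% (9.30 to 10.3%) in isolated regions. No clustered region had more than 6 summits.

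Larger chains had taller pileups, higher reference levels and lower fold enrichments. The peak call ties these values together, and how far it sets their order was not tested. The median pileup was 19 in chains of 3, 24 in chains of 4 or 5, 39 in chains of 6 to 9 and 51 in chains of 10 or more. Over the same classes the median reference level went from 1.67 through 2.62 and 7.16 to 10.6 fragments per base, a steeper increase than that of the pileup. The median fold enrichment was 7.37, 6.53, 5.98 and 4.79. Regions with a reference level above 10 times the lowest made up 13.7%, 40.6%, 89.7% and 97.2%, and those with several summits 13.5%, 18.2%, 27.2% and 22.1%. Every region lay above that level in 24 of the 229 chains of 3 and in 15 of the 21 chains of 10 or more.

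**Figure D2:**
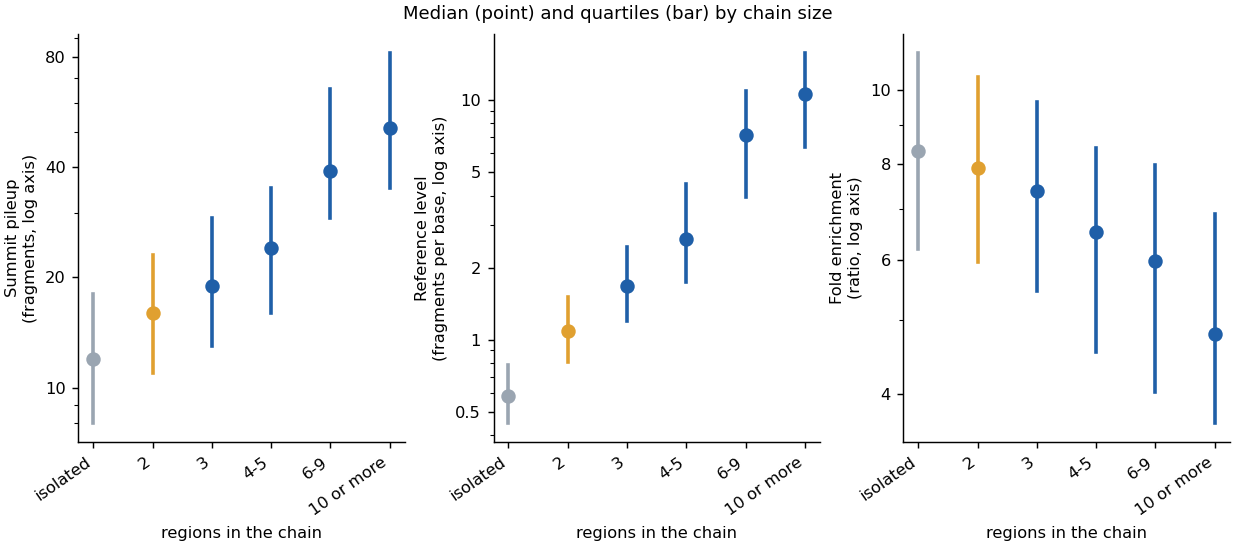
Summit pileup, reference level and fold enrichment (each on a log axis) of regions by the size of their chain, from isolated regions to chains of 10 or more. Points are medians and bars run from the lower to the upper quartile of regions. From isolated regions to the largest chains, the median pileup went from 12 to 51 fragments, the median reference level from 0.579 to 10.6 and the median fold enrichment from 8.32 to 4.79.

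Chains took up more of the spread in pileup than of that in fold enrichment. The chain accounted for 70.1% of the variance of log2 pileup among clustered regions and for 35.5% of that of log2 fold enrichment. Both shares include a part that small chains give even to unrelated values, since 229 of the 353 chains have only 3 regions. That part was not measured, so neither share is read as an effect of the chain. Within the median chain the highest pileup was 2.24 times the lowest and the highest fold enrichment 2.03 times the lowest. The ratio was narrower for fold enrichment in 267 of the 353 chains. The constant added to the pileup in the fold enrichment narrows its ratio by itself where the reference level is even, most at low pileups. How much of the difference this makes was not measured, so these ratios are not read as a likeness of fold enrichments within chains. The widest ratio of pileups was 40.9. The 706 regions at the ends of chains had a median pileup of 22 and a median fold enrichment of 7.11, whereas the 818 inner regions had 33 and 5.94. Their median reference levels were 1.92 and 4.40. These medians mix place with chain size, since chains of 10 or more provided 275 of the inner but 42 of the outer regions. Within chains of 3 the median pileup was 19 at either place. Outer and inner medians were 22 and 25 in chains of 4 or 5, 36 and 41 in chains of 6 to 9, and 48 and 52 in chains of 10 or more. The fold enrichment differed most in the last class, at 6.90 outside and 4.62 inside, with reference levels of 6.93 and 10.9.

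The largest chain, on chromosome 2 (19794235-19838125), held 31 regions in 43891 bp. Its pileup began at 25 fragments at one end and was 17 to 20 over the next 4 regions. It reached 149 (exact Poisson 95% interval 126 to 175, for counting error only) at 19817307-19817472. Beyond that it went up and down, with summits of up to 89 fragments, and was 19 at the other end. The reference level formed a broad dome, from 2.74 at the first region to 15.4 at 19822036-19822143 and 3.74 at the last. The fold enrichment ranged from 3.03 to 11.0 with a median of 4.60, below the isolated median. Distances between neighbouring summits ran from 344 to 4630 bp.

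Chromosome 10 held the tallest summit of any clustered region. In a chain of 9 regions (16825953-16844073), the pileup was 19, 86, 355, 382, 201, 392, 301, 778 and 95 fragments in order of position. The reference level rose along it from 3.72 to 38.1 at the sixth region and was 32.8 at the last. The eighth region (16843043-16843305) had a pileup of 778 (724 to 835), with 24.0 as its fold enrichment and 7552 as its score. The next region, 644 bp away, had 95 fragments and a fold enrichment of 2.84. A chain of 23 regions (16850815-16881831) began 6741 bp further on, with pileups from 41 to 264. Only the limit of 5000 bp kept these chains apart.

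**Figure D3:**
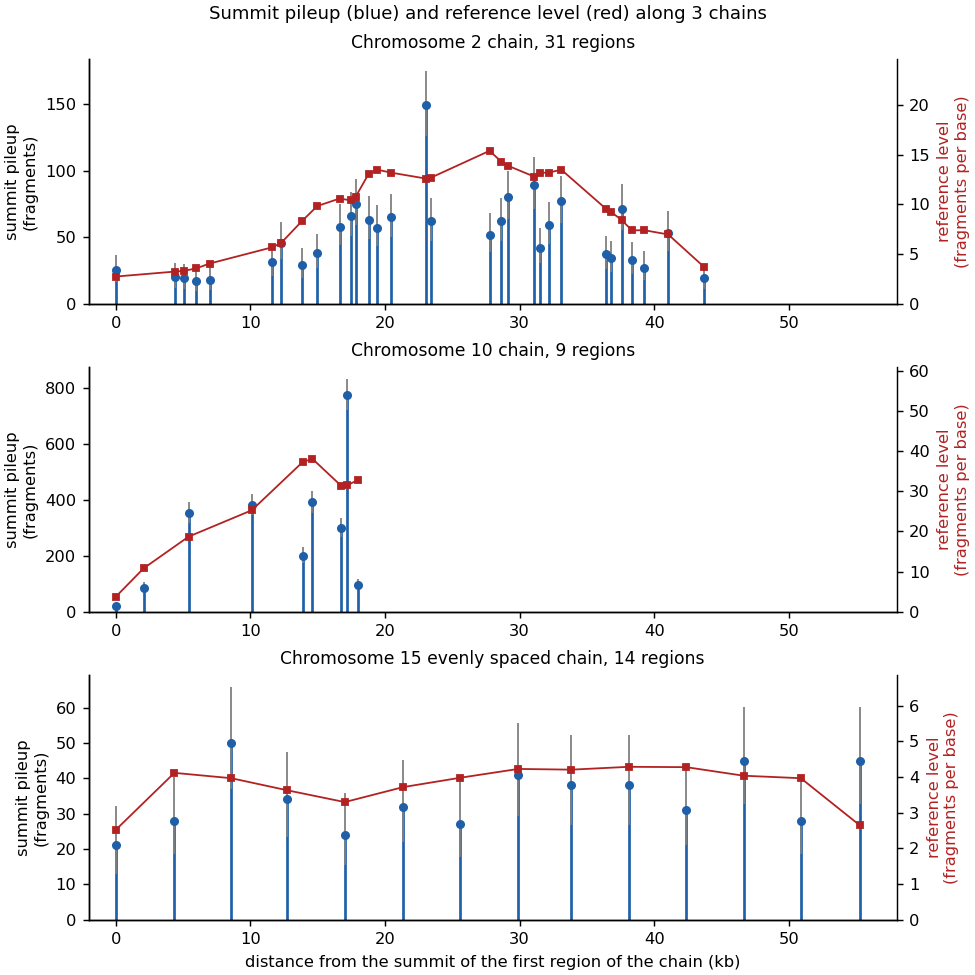
Summit pileup (blue, left axis, with exact Poisson 95% intervals for counting error) and reference level (red, right axis) against distance from the first summit (kb) in the chromosome 2 chain of 31, the chromosome 10 chain of 9 and the chromosome 15 chain of 14 regions. In the first the reference level forms a broad dome, and the tallest of its uneven summits has 149 fragments. The second holds the summit of 778, and the third has 14 evenly spaced summits of 21 to 50.

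Other large chains differed in how high their surroundings stood. A chain of 23 regions on chromosome 14 (19788751-19811337) had a median reference level of 23.5 and a median fold enrichment of 3.35. A chain of 21 on chromosome 16 (18319378-18355255) had 6.61 and 4.62. One of 20 on chromosome 21 (25804887-25832264) had 8.76 and 5.05. A chain of 17 on chromosome 3 (55093696-55108627) had 13.5 and 4.18, and held a region of 394 fragments (55100996-55101195) with a fold enrichment of 21.9. The highest reference levels stood over a chain of 10 on chromosome 16 (15764679-15770919), at 40.0 to 49.7 fragments per base. Its pileups, 151 to 258 fragments, were all above the upper quartile of clustered regions, but its fold enrichments were 3.34 to 5.21. In such chains tall summits and low fold enrichment occurred together.

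The 5 clustered regions with the highest fold enrichment lay in chains of 3 to 6. The first, on chromosome 11 (34879461-34880078), had a fold enrichment of 42.0 with 215 fragments (187 to 246), which made 47.7% of the fragments in its 10 kb. It was the last of a chain of 3. Fold enrichments of 31.5 and 31 followed on chromosome 10 (22903606-22903757) and chromosome 7 (71113779-71114088). In 13 chains, all of 3 regions, every fold enrichment exceeded the isolated median, whereas in 80 chains every one was below it. The leading chain of the 13 lay on chromosome 17 (40001887-40006330), with fold enrichments of 8.68, 17.2 and 18.4 and pileups of 52, 96 and 101. One on chromosome 23 (23112089-23119699) had 14.5, 13.5 and 10.7 at pileups of 42, 44 and 33. These chains were picked for their fold enrichments, which are given as a description.

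At the other end, every reference level of 9 chains was below 0.785, the upper quartile of isolated regions. The sparsest, on chromosome 13 (44161028-44165336), had pileups of 4 to 6 fragments and reference levels of 0.326 to 0.344. The tightest chain of all, on chromosome 9 (18819783-18820629), packed 3 regions into 847 bp, with pileups of 13, 10 and 7 fragments. Their exact Poisson 95% intervals were 6.92 to 22.2, 4.8 to 18.4 and 2.81 to 14.4, so the order of these summits is within counting error. A chain of 5 on chromosome 8 (44405167-44406633) fitted into 1467 bp with 14 to 22 fragments.

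A small chain on chromosome 18 (16233001-16240444) stood below the clustered medians of pileup (28) and reference level (2.82) but above that of fold enrichment (6.42). By the spacing of the marks alone, it may correspond to marks that a browser view of the study draws beside *alx1*, a homeodomain transcription factor gene of the cranial neural crest. No annotation was laid over the list here, so this placement was not tested. The pileups of its 4 regions were 13, 21, 20 and 20 fragments, and their intervals overlapped. Reference levels were 1.15, 2.05, 1.77 and 1.73, and fold enrichments 6.52, 7.21, 7.57 and 7.69. All 4 fold enrichments were between the lower quartile and the median of isolated regions.

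Some chains repeated at an even pitch. Among the 124 chains of 4 or more, 10 had distances between summits that varied by less than 5% of their mean (a coefficient of variation under 0.05), and the next chain in order had 0.0634. This criterion was set after the distances had been seen. In 9 of the 10, with 69 regions on chromosomes 8, 11, 15 and 25, the 60 distances averaged 4236.6 ± 88.9 bp (SD over distances), from 3780 to 4430 bp. The means of the 9 chains ran from 4173.3 to 4270.7 bp. The longest, on chromosome 15 (7200381-7255829), set 14 regions at distances of 3950 to 4374 bp over 55449 bp. On the same chromosome, chains of 9, 7 and 11 regions followed each other from 9808884 to 9924836, with 8765 and 5360 bp between their outer summits. The most even chain, on chromosome 25 (18721744-18734892), had 4 summits 4278, 4259 and 4275 bp apart. It lay between an even chain of 5 (18696102-18713398) and a chain of 3 (18740368-18749308) whose distances, 4279 and 4286 bp, were close to these. Chromosome 8 carried even chains of 7 (30825892-30851815) and 5 (30874701-30891986), and chromosome 11 a chain of 7 (30817705-30843349).

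Within most of the 9 evenly spaced chains on chromosomes 8, 11, 15 and 25, the highest pileup was less than 2.24 times the lowest. That value is the ratio in the median chain of all 353. Pileups ran from 28 to 46 and from 29 to 47 fragments in the chromosome 8 chains, and from 46 to 60 in the chromosome 25 chain of 4. In the chromosome 15 chain of 14, pileups ran from 21 to 50 fragments and reference levels from 2.52 to 4.29. The chromosome 25 chain of 5 had the widest range, from 33 to 102 fragments. Across the 69 regions pileups ran from 21 to 102, with a median of 35 (quartiles 30 and 41), and the median reference level was 3.91 (3.61 and 4.29). Their median fold enrichment was 7.28 and their median width 255 bp, wider than the 193 bp of clustered regions as a whole. The tenth even chain, on chromosome 24 (4106877-4122497), had 4 regions 5142 bp apart on average and a median pileup of 14. The 19 chains of 10 or more that were not even had coefficients of variation from 0.258 to 1.56 and median reference levels from 3.88 to 48.8. The lowest of both belonged to a chain of 13 on chromosome 15 (9675068-9722534). Its distances averaged 3926.4 bp, with a shortest of 710 bp and a longest of 4297 bp. A mean so close to the longest distance places most of them near the 4236.6 bp average of the 9 even chains. In density, at 2.74 regions per 10 kb, and in reference level this chain was also close to the even chains.

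Over the whole list, distances of 4200 to 4300 bp stood above the steps beside them. Pairs of the even chains are among them and were not counted apart from those of other chains. In the chromosome 8 chain of 7, for example, every distance was from 4210 to 4289 bp. The count is therefore not a second observation, independent of the even chains. Counted in steps of 100 bp, 90 pairs of neighbouring summits lay 4200 to 4300 bp apart, 66 of them within chains, against 57 in the step below and 31 in the step above. Outside chains of 3 or more the same step held 24 pairs, with 29 in the step below and 20 in the step above. The higher count thus lay among pairs within chains. Any run of 3 or more regions at this distance forms a chain by the rule, so this split is not independent of it. Between 4100 and 4400 bp there were 178 pairs, of which 105 were in chains and 61 on chromosome 15. Short distances were the other common kind, with 318 pairs from 250 to 500 bp, of which 165 were in chains. No genome sequence was read, so whether the evenly spaced regions share their sequence was not tested.

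**Figure D4:**
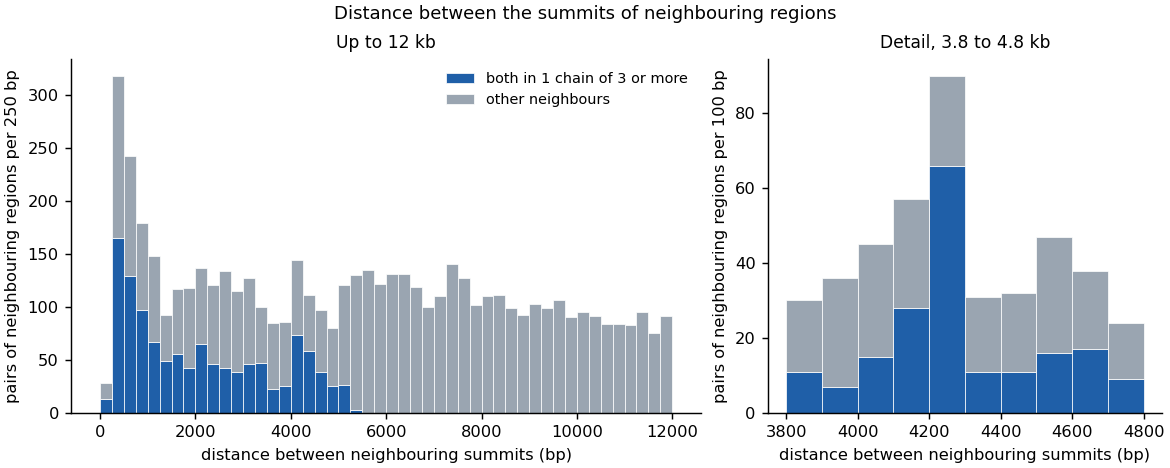
Pairs of neighbouring regions by the distance between their summits (bp), in steps of 250 bp up to 12 kb (left) and of 100 bp from 3800 to 4800 bp (right). Blue bars are pairs within a chain of 3 or more and grey bars are all other neighbours. The step from 4200 to 4300 bp holds 90 pairs, 66 of them within chains, and the grey part, 24 pairs, does not stand above its neighbours.

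Chromosomes differed in how much of their list was clustered. The share ran from 2.46% on chromosome 1 (18 of 733 regions) to 13.5% on chromosome 16 (105 of 780) and chromosome 17 (95 of 703), with 13.1% on chromosome 15 and 13.0% on chromosome 10. A few long chains set part of this order. On chromosome 15, 51 of 91 clustered regions lay in chains of 10 or more, and without them 5.76% of its regions remained clustered. On chromosome 11, where no chain reached 10, the share was 10.7%. Another chain lay within 100 kb of 90 of the 353 chains (25.5%) and of 12 of the 21 with 10 or more regions. The same share was not counted for isolated regions or chains of 2. The limit of 5000 bp also splits some close chains, so these counts are not read as a nearness of chains.

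Record numbers in the list follow position, and some are absent. Between the first and last region of the chains, 85 of 1609 numbers (5.28%) were absent, and 288 chains lacked none. Over the chromosomes as a whole 46.2% were absent. A limit on gaps leaves little room for absent numbers inside chains, so this difference is not independent of the rule. Chains, gaps and isolated regions are those of the list as deposited. Whether an absent record lay beside an isolated region was not tested.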

How the data were processed

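CUT&RUN reads from 2 samples were trimmed by the authors with Trim Galore, mapped with Bowtie2 and called for peaks with MACS2 against IgG, as their methods state. MACS2 settings and how the samples were combined are not given in the sources used here. Scores in the deposited list equalled 10 times −log10 q without decimals for each of the 21059 records. Its fold enrichment is a ratio that the authors' peak caller computed at the summit from signal and reference. The −log10 p, as deposited by the authors, came from the same caller. The study names danRer11, the submitters' processing notes danRer10 and danRer11, and the list no build. Positions are therefore given as listed, counted from 1, with no build assigned, and no gene or sequence was laid over them.

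Records sharing at least 1 bp were merged, with the values of the record of highest score. Pileup and reference level were solved from fold enrichment and −log10 p under a Poisson model, with whole pileups up to 1499 and a tolerance of 0.001. A second whole pileup came within this tolerance in 68 records, where the better one was kept. Reference levels were called whole multiples of the step within 0.05 of a step. This recovery and the chaining were checked on simulated data. The deposited list gives no library total, and the study's methods and the labels state different read depths. The depth behind the list is therefore unknown, and intervals cover counting error only. Shown chains and regions are the largest by number, the 5 with the highest score and the 5 with the highest fold enrichment. Those with an extreme of spacing, fold enrichment or reference level are also shown. The chromosome 18 chain is shown for a possible placement beside *alx1*, which was not tested. Members, lists and shown items were chosen with earlier results of these data known. Alternatives were the gap (2000 and 10000 bp), chains of 4 or more, only the higher-scoring regions of the list, records within 100 bp joined and chromosome 4 kept whole. Computations ran in Python 3.11.15 (numpy 2.4.6, scipy 1.17.1, pandas 2.3.3, matplotlib 3.10.9).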

Additional observations from a re-analysis of the deposited data

Results flagged for a closer look

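Unplaced scaffolds, which the comparisons above did not use, also carried dense clusters. There 124 of 476 regions (26.1%) lay in 19 chains of 3 or more, against 8.45% of the regions in scope. The largest of these chains held 25. The regions in these 19 chains had a median pileup of 43 fragments, a median reference level of 8.68 fragments per base and a median fold enrichment of 5. Clustered regions in scope had 28, 2.82 and 6.42. The list gives no separate control level to set beside these values.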

How the results depend on the processing

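Clustered regions kept a higher median pileup and a lower median fold enrichment than isolated regions under every alternative that gave both. All alternatives used the same peak call, which ties pileup to reference level, so they are not independent of each other. With gaps of at most 2000 bp there were 669 clustered regions in 158 chains, with a median fold enrichment of 5.27, a median pileup of 36 and 20.2% with several summits, and isolated regions had medians of 8.22 and 13. With gaps up to 10000 bp there were 3911 in 953 chains, with 7.61, 19 and 15.7%, and 8.98% of isolated regions had several summits. Chains of 4 or more held 837 regions in 124 chains, with 5.68, 37 and 21.7%. Among regions scoring above the median of the list, 556 were clustered in 119 chains, with 7.45, 47 and 23.9%, and isolated regions had 11.2, 19 and 14.3%. Without chains of 10 or more, an alternative chosen after seeing the data, the medians were 6.80 and 23. The other 27 of 55 alternative values were within 1.5 times the reported count or within the 95% interval of the reported median or share, including all under merging within 100 bp, chromosome 4 kept whole and the 9 evenly spaced chains left out (also chosen after seeing the data).

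The planned tests of the TFAP2 motif, gene starts and repeat-masked sequence, the base composition and likeness of members and the genes at chains, with all their alternatives, were not run, since they need a genome or annotation that the positions can be read against. Neither sample was left out, because both share 1 list. No paired analysis was possible because there is 1 group and 1 list. Without library totals or replicates, a summit of few fragments, as in the tightest chain, has wide counting error, and a gap in a chain cannot be called unbound.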
